A study of Mus musculus with 2 samples.

Results

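The Sox genes studied here are 10 genes for transcription factors of the Sox family, out of 15046 genes counted by single-cell RNA sequencing (scRNA-seq) in neural stem/progenitor cells (NSPCs). They are *Sox4*, *Sox11* and *Sox12* of group C (SoxC), *Sox2*, *Sox3* and *Sox21* of group B, *Sox8* and *Sox9* of group E, and *Sox5* and *Sox6* of group D. They were selected on their measured levels in these cells, and all 10 have counts. *Sox2*, *Sox3* and *Sox9* are called the stem cell Sox genes here.

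The NSPCs came from the subventricular zone of C57/Bl6 male mice aged 6 to 8 weeks and were grown as neurospheres for at least 5 passages. They were then kept in medium with 20 ng/ml EGF and 20 ng/ml FGF-2. All cells belong to 1 stable line, in which a retrovirus had introduced PLIN2-GFP, the lipid droplet (LD) coat protein perilipin 2 joined to green fluorescent protein, and GFP brightness was used as the readout of LD content. From proliferating cells without further treatment, the 25% with the weakest GFP (the low category) and the 25% with the strongest (the high category) were put into 384-well plates, 1 cell to a well. On plate 1, 95 low and 84 high cells were analysed, and on plate 2, 72 low and 53 high.

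Sox proteins bind DNA through a high mobility group (HMG) box and act together with partner factors. *Sox2*, *Sox3* and *Sox9* are known for keeping neural stem cells undifferentiated, while *Sox4* and *Sox11* are known for acting in progenitors that become neurons and in young neurons. *Sox8*, *Sox5* and *Sox6* are known above all from the glial lineages, where *Sox5* and *Sox6* modulate the activity of other Sox proteins. In the subventricular zone, stem cells give rise to dividing progenitors and these to neuroblasts.

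The genes lie on different chromosomes in GRCm38, by the GENCODE annotation M21. *Sox4* (chr13:28948919-28953713, minus strand) and *Sox11* (chr12:27334264-27342574, minus strand) consist of 1 exon each, as do *Sox2* (chr3:34650405-34652461, plus strand), *Sox3* (chrX:60891366-60893430, minus strand) and *Sox21* (chr14:118233232-118237030, minus strand). *Sox12* (chr2:152393611-152398063, minus strand) has up to 2 exons, and *Sox9* (chr11:112782224-112787760, plus strand) and *Sox8* (chr17:25565892-25570686, minus strand) have up to 3. *Sox5* (chr6:143828425-144781977, minus strand) and *Sox6* (chr7:115470872-116038796, minus strand) are long genes with up to 15 and 17 exons. Of the 4795 exonic bases of *Sox4*, 2616 are also exonic in a gene on the opposite strand, *Gm26735*. *Sox21*, *Sox8* and *Sox5* share 713, 329 and 1330 exonic bases with antisense genes in the same way. Whether the counting used the strand is not given in the sources used here, so reads of these pairs may not be separable.

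The promoters of *Sox4* and *Sox11* are shown because, in the sums of all cells, these genes moved in opposite directions between phases of the cell cycle, as described below. Each line holds the 250 bases before the start of the gene in RefSeq, on GRCm38.p6 and on the minus strand, from 5′ to 3′, at chr13:28953700-28953949 for *Sox4* and chr12:27342719-27342968 for *Sox11*. Capitals mark the CCAAT box, a common promoter element, in either orientation.
Sox4: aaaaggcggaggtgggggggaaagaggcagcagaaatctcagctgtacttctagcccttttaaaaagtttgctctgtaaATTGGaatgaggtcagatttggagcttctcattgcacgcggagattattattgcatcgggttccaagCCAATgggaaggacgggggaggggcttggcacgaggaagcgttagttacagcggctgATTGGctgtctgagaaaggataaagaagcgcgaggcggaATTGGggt
Sox11: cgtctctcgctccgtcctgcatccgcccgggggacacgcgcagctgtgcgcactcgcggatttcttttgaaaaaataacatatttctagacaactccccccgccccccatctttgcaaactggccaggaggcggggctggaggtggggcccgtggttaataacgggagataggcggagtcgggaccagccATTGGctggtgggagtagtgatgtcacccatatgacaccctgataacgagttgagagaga
The window of *Sox4* holds 4 CCAAT boxes, of which 3 read as the reverse complement, and that of *Sox11* holds 1. In GENCODE, *Sox4* starts at chr13:28953713, inside this RefSeq window, so the last of its 4 boxes falls in the exon given above. Of 32851 promoter windows of this length, 33.9% hold at least 1 and 0.84% hold 4 or more. The letters TTTGAA, found in promoters of many cell cycle genes, occur once in the window of *Sox11* and are not in that of *Sox4*, and 16.0% of all windows hold them. GGGCGG, a GC box, occurs at 2 places in the window of *Sox11* and is not in that of *Sox4*, against 32.7% of all windows. Neither window holds TATAAA (12.4% of all windows) or the letters ACAATG (10.7%) or ACAAAG (16.5%) that Sox proteins bind. Both strands were searched, none of these letter strings overlaps another in these windows, and a match describes the letters and no binding.

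In SORT-seq, which runs CEL-Seq2 chemistry in wells, each polyadenylated RNA molecule receives a unique molecular identifier (UMI) near its 3′ end, so each molecule is counted once and levels were not divided by gene length. The deposited values are estimated UMI counts, from 1170 to 34630 per cell. Counts were summed over the cells of a plate and group, and levels are given as CPM, counts scaled to a common library size, after TMM normalisation, which sets the bulk of genes equal between sums. The sums per plate and category hold 778022 to 1029023 UMIs. Of the NSPC genes, a UMI was found in 100% of cells for *Vim*, 99.3% for *Fabp7*, 71.1% for *Nes*, 54.3% for *Hes1* and 16.1% for *Sox2*. Of the astrocyte genes, *Gfap* had 1.5 UMIs over all cells, *Aqp4* 16 and *S100b* 39. The astrocyte gene *Slc1a2* had 284 UMIs, with at least 1 in 42.1% of cells. Markers of neurons, endothelial cells and ependymal cells summed to 33, 13 and 73.5 UMIs. On both plates each of the 16 rows of wells held cells of 1 category, with 0 of 32 rows holding both, so rows and categories cannot be told apart. The plates used the same set of well barcodes, and 59 of the 245 barcodes of analysed cells occur on both.

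*Sox4* had the most UMIs of the 10 genes, with 2240 over all cells, and at least 1 UMI was found in 93.4% of cells (95% exact binomial interval 90.0 to 95.9). *Sox9* followed with 1236 UMIs (90.8% of cells), *Sox11* with 953 (83.2%) and *Sox3* with 553 (69.4%). *Sox8* was detected in 59.9% of cells. *Sox12*, *Sox5*, *Sox6* and *Sox21* were found in 37.2% to 44.4% of cells, and *Sox2* in 16.1% (12.2 to 20.7). The intervals cover counting error only. Only NSPCs were sorted, so no cell type lacking these genes was there to give a background. In cells thinned to 5000 UMIs each, 259 cells remained, and *Sox4*, *Sox9*, *Sox11* and *Sox3* were the genes still found in over 50% of them.

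*Sox2* counts are the least certain. Of the 69 cells with a *Sox2* value above 0, 45 hold parts of UMIs, which the authors' software divided between genes, and these cells carry 60.2% of the *Sox2* UMIs. The value was 0.5 UMIs in 16 cells and 1.5 in 19. *Sox2* lies in an intron of *Sox2ot*, a long non-coding gene on the same strand, and shares 0 exonic bases with it. Which gene shared the reads was not tested, and no value of *Sox2ot* was analysed here. The other members hold mainly whole UMIs, with parts in 0 cells for *Sox4*, *Sox11*, *Sox12*, *Sox3*, *Sox21* and *Sox9*, and in up to 11 cells for *Sox8*, *Sox5* and *Sox6*.

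High and low PLIN2-GFP NSPCs differ in LD content, and the comparison asks which Sox genes differ with it. This contrast was in view when the genes were selected, so its values are a description without a test. On plate 1, *Sox4* was at 986 CPM in the low and 495 in the high category, and on plate 2 at 683 and 474. The low sums of the plates differ more from each other than the high sums do. The log2 fold change of high over low was -0.78 (SE 0.09, n = 2 plates), with -0.996 on plate 1 and -0.53 on plate 2. This SE and those below come from the edgeR fit, which shares its estimate of the spread over genes. They do not measure how far the plates differ in a single gene. The median single cell held 6 and 7 *Sox4* UMIs on plates 1 and 2 in the low category and 4.5 and 6 in the high one, out of median totals of 7856 and 11955 UMIs in the low and 11709 and 14729 in the high category. In cells thinned to equal UMIs, the difference of *Sox4* was -0.87, and among cells in G1 phase it was -0.57.

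The glial genes *Sox6* and *Sox8* were also lower in the high category of both plates. *Sox6* was at 74.8 and 64.8 CPM in the low category of plates 1 and 2 and at 34.4 and 31.3 in the high category, a log2 fold change of -1.09 (SE 0.26). *Sox8* was at 124 and 125 CPM in the low category and at 80.2 and 82.7 in the high category, a log2 fold change of -0.61 (SE 0.18). For both genes the plates lie close together. *Sox4*, *Sox6* and *Sox8* are the 3 of 10 members past an adjusted p of 0.1 in edgeR, where 2.14% of 8348 genes are. Since the genes were selected with this contrast known, nothing is read from that count. Without the plate as a block, 0 of the 10 pass it.

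Of the stem cell Sox genes, *Sox9* and *Sox3* were at near-equal levels in both categories. *Sox9* was at 366 and 356 CPM in the low and 336 and 373 in the high category (log2 fold change -0.03, SE 0.11), and *Sox3* at 159 and 160 in low and 166 and 150 in high (-0.01, SE 0.15). *Sox2* was at 25.8 and 28.3 CPM in the low and 32.5 and 20.1 in the high category, so that its difference had opposite signs on the plates (0.32 and -0.49). *Sox11*, the close relative of *Sox4*, was at 268 and 280 CPM in the low and 304 and 237 in the high category (-0.03, SE 0.12). Its difference was likewise positive on plate 1 (0.18) and negative on plate 2 (-0.25). The log2 fold change was 0.22 for *Sox12* (SE 0.24), -0.34 for *Sox21* (SE 0.24) and -0.12 for *Sox5* (SE 0.23). *Sox21* was lower in the high category on both plates (-0.15 and -0.53).

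**Figure D1:**
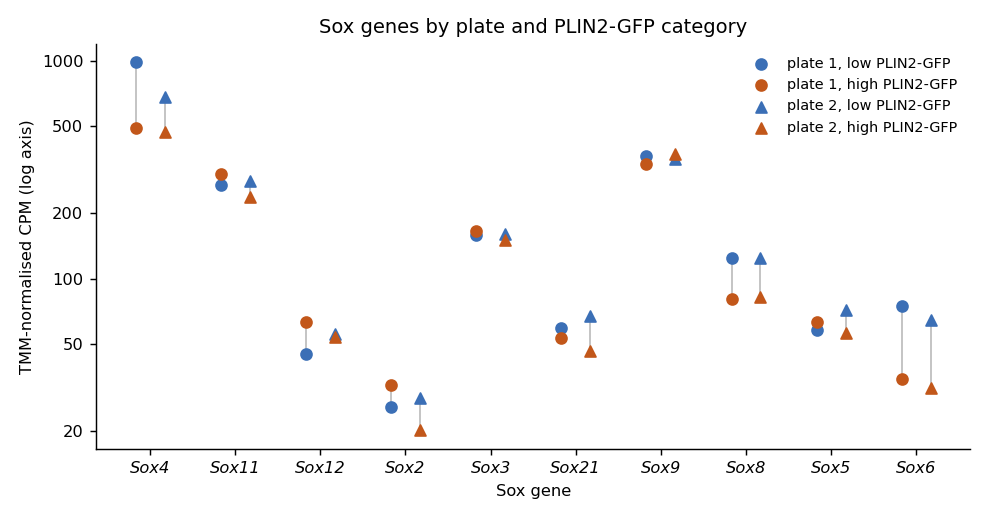
Level of each Sox gene in TMM-normalised CPM on a log axis, in low (blue) and high (orange) PLIN2-GFP NSPCs of plate 1 (circles) and plate 2 (triangles), with a grey line joining the categories of a plate. *Sox4*, *Sox8*, *Sox6* and *Sox21* are lower in the high category on both plates, while *Sox11*, *Sox2* and *Sox12* change sides or nearly coincide.

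The cell cycle phase of each cell was given by the authors. To ask how Sox genes vary over the cycle, counts were summed per plate and phase, with 81 G1, 41 S and 57 G2/M cells on plate 1 and 51, 36 and 38 on plate 2. Both later phases are compared with the same G1 sums. Where the sums of a gene are said to lie apart between phases, that is a description. The share of all genes with sums in such an order was not counted. The phase calls do not use the Sox genes, but these genes were chosen with earlier results of these data known. The phase contrasts were tested in edgeR, blocking on the plate, with p-values adjusted by Benjamini-Hochberg over 7650 genes. Since both plates hold cells of 1 line, the spread behind the p-values is that between plates, which may be technical. It is estimated mainly over all genes together, so a p-value does not measure how well the plates agree on a single gene.

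*Sox4* was highest in G1. Its level was 815 and 793 CPM in G1 on plates 1 and 2, 561 and 492 in S, and 675 and 483 in G2/M. All 4 later sums lie below both G1 sums. *Sox4* fell by 0.63 on the log2 scale from G1 to S (SE 0.11, adjusted p = 2.54e-04) and by 0.49 from G1 to G2/M (SE 0.11, adjusted p = 0.00214). The fall in S passed with any 1 sum left out, whereas that in G2/M was 0.35 without the G1 sum of plate 2 (adjusted p = 0.103) and 0.30 without its G2/M sum (adjusted p = 0.230).

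*Sox11* moved the opposite way. It was at 236 and 200 CPM in G1, 324 and 269 in S, and 328 and 308 in G2/M, so that all 4 later sums lie above both G1 sums. *Sox11* rose by 0.41 in S (SE 0.14, adjusted p = 0.0672) and by 0.52 in G2/M (SE 0.14, adjusted p = 0.0102). With 1 G1 or S sum left out, the rise in S was 0.36 to 0.47 and no longer passed (adjusted p from 0.172 to 0.330), and the rise in G2/M was lost without the G2/M sum of plate 2 (0.47, adjusted p = 0.130). The ratio of *Sox4* to *Sox11* was accordingly 3.45 and 3.96 in G1, 1.73 and 1.83 in S, and 2.06 and 1.57 in G2/M. The third SoxC gene, *Sox12*, was at 54.5 and 60.2 CPM in G1, 75.5 and 58.2 in S, and 41.4 and 45.7 in G2/M, and passed in neither contrast (0.19, SE 0.26, and -0.41, SE 0.28).

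Split by category as well, *Sox4* was lower in S than in G1 in all 4 pairs of sums. It went from 973 to 949 CPM and from 911 to 498 in the low category of plates 1 and 2, and from 654 to 324 and from 627 to 498 in the high category. In G2/M it was lower than in G1 in 3 of the 4 pairs, and the exception was the low category of plate 1, at 1039 CPM. *Sox11* was higher than in G1 in both later phases in all 4 groups, from 180 to 282 CPM in G1, 270 to 333 in S and 250 to 345 in G2/M. With the category as a term over these 12 sums, *Sox4* differed from G1 by -0.54 in S and -0.44 in G2/M, and *Sox11* by 0.42 and 0.51. Within low PLIN2-GFP NSPCs alone the difference of *Sox4* between G2/M and G1 was -0.21 (adjusted p = 0.394), and within high alone it was -0.69 (adjusted p = 0.0147). For *Sox11* the same difference was 0.75 within the low category (adjusted p = 0.00393) and 0.27 within the high one (adjusted p = 0.470), and in S *Sox11* passed in neither category alone (0.51 and 0.32, adjusted p = 0.112 and 0.447).

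**Figure D2:**
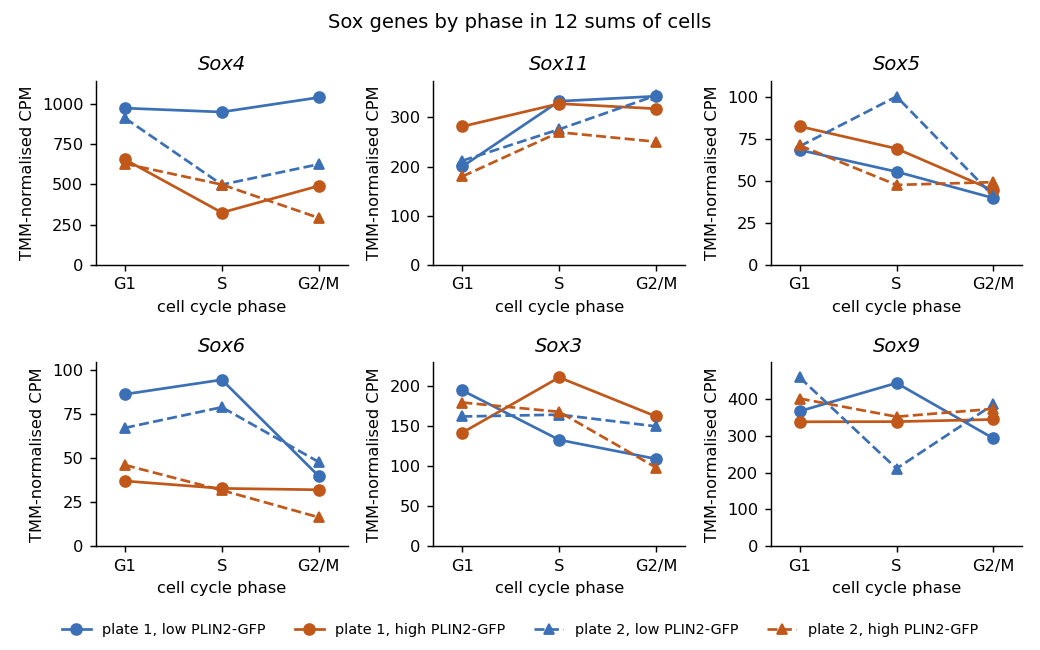
Level of 6 Sox genes in TMM-normalised CPM (linear axes from 0) in G1, S and G2/M, for low (blue) and high (orange) PLIN2-GFP NSPCs of plate 1 (circles, solid lines) and plate 2 (triangles, dashed lines), each point 1 sum of cells. *Sox11* is lowest in G1 in all 4 lines, *Sox4* is lower in S than in G1 in all 4, and *Sox5* and *Sox6* are lower in G2/M than in G1 in all 4.

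The SoxD genes were lower in G2/M. *Sox5* was at 74.4 and 73.8 CPM in G1 and at 43.0 and 47.6 in G2/M, and fell by 0.73 on the log2 scale (SE 0.26, adjusted p = 0.0607). *Sox6* was at 62.4 and 58.3 CPM in G1 and at 34.8 and 34.2 in G2/M, and fell by 0.82 (SE 0.28, adjusted p = 0.0569). For both genes the plates lie close together and the phases do not overlap. In S, at 62.6 and 71.4 CPM for *Sox5* and 56.1 and 51.5 for *Sox6*, neither gene passed (adjusted p of at least 0.744). Counts were low, with 217 and 174 UMIs over all cells, and without any 1 of the G1 or G2/M sums neither gene passed (adjusted p from 0.177 to 0.421).

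The other members did not pass in either phase with all sums. *Sox9* was at 351 and 439 CPM in G1, 373 and 283 in S, and 329 and 388 in G2/M, so that the plates disagree on the direction in S (0.07 and -0.66). Without the G1 or the S sum of plate 1, *Sox9* passed in S (-0.49 and -0.63, adjusted p = 0.0828 and 0.0196). *Sox3* was at 169 and 173 CPM in G1, 177 and 165 in S, and 146 and 129 in G2/M (-0.32 in G2/M, SE 0.17, adjusted p = 0.253). *Sox21*, which counteracts the other group B genes, was at 49.1 and 38.9 CPM in G1 and at 66.2 and 78.0 in G2/M (0.66, SE 0.26, adjusted p = 0.107). *Sox8* was at 89.0 and 91.3 CPM in G1 and at 113 and 114 in G2/M (0.31, SE 0.20, adjusted p = 0.377). *Sox2* had the widest error, with 42.5 and 29.1 CPM in G1 and 13.2 and 24.7 in G2/M (-0.98, SE 0.40, adjusted p = 0.119), and it passed without the G2/M sum of plate 2 (-1.67, adjusted p = 0.0461). These p-values do not show that levels were equal.

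In all, 2 of the 10 members passed between S and G1, where 12.7% of all genes did (7.56% higher and 5.19% lower in S). Between G2/M and G1, 4 of 10 passed, where 16.4% of all genes did (9.01% higher and 7.4% lower in G2/M). With 10 members, the count in S is near the share of all genes.

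**Figure D3:**
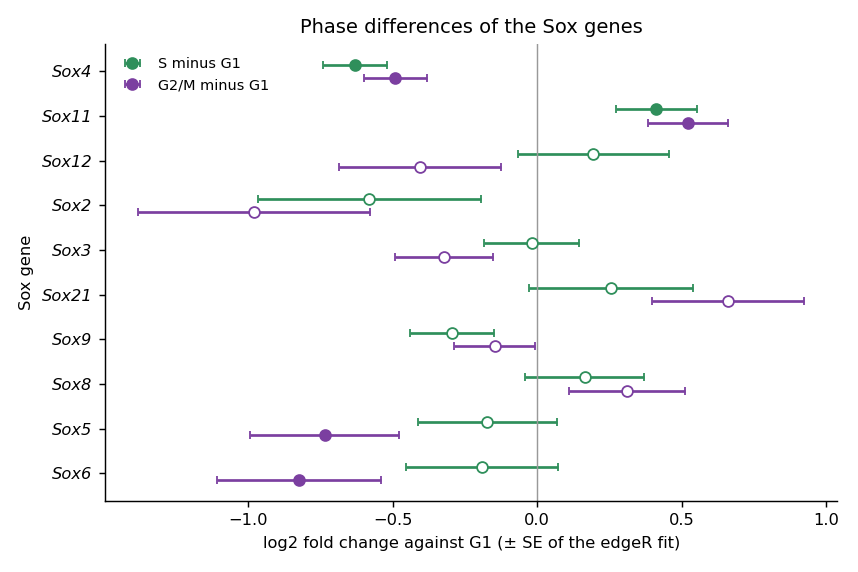
Log2 fold change of each Sox gene in S (green) and G2/M (purple) against G1, with bars of ± 1 SE of the edgeR fit over 2 plates, where filled points pass an adjusted p of 0.1. *Sox4* lies below 0 and *Sox11* above 0 in both phases, and *Sox5* and *Sox6* are filled in G2/M only, which does not show that S and G2/M differ.

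G1 cells held fewer UMIs, with medians of 8290 and 9825 on plates 1 and 2, against 10994 and 15301 in S and 9565 and 12902 in G2/M. Their mitochondrial share was higher, at medians of 14.04% and 13.8% against 11.3% to 11.9%. In cells thinned to 5000 UMIs, *Sox4* kept its difference (-0.84 in S and -0.61 in G2/M, adjusted p = 2.02e-06 and 4.68e-04), while *Sox11* was at 0.21 and 0.43 and no longer passed (adjusted p = 0.697 and 0.205), nor did *Sox5* (-1.24) and *Sox6* (-0.62) in G2/M. Thinned *Sox11* was at 215 and 265 CPM in G1 on plates 1 and 2, 319 and 248 in S, and 290 and 365 in G2/M. Its rise in S was thus absent on plate 2 at equal UMIs, while that in G2/M was present on both plates. Without the plate as a block, *Sox4* passed in S (adjusted p = 0.0376) and missed the threshold in G2/M (0.103), *Sox11* missed it in both (0.295 and 0.119), and *Sox5* and *Sox6* missed it in G2/M (0.137 and 0.119).

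Whether the phase differences depend on the PLIN2-GFP category was tested as an interaction over the 12 sums. In edgeR, 0 of the 10 members passed, against 0.0487% of 6163 genes (3 genes). At an unadjusted p under 0.05 there were 0 members and 333 genes, and the members' unadjusted p ranged from 0.0996 for *Sox8* to 0.596. The G2/M differences of *Sox4* and *Sox11* given above for each category are thus not shown to differ between categories.

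Genes that work with Sox proteins or mark the same cells were read from lists. Of 12 partner genes of Sox proteins, all were tested, and 1 rose and 0 fell in each phase contrast, next to the 7.56% of all genes that rose in S and the 9.01% in G2/M. *Pou3f1*, a POU factor, rose by 0.85 in S (SE 0.27, adjusted p = 0.0451), and *Pax6*, a regulator of neural progenitors, rose by 0.83 in G2/M (SE 0.32, adjusted p = 0.0945). Of 23 neuroblast genes, 9 were tested. In S, 1 rose and 1 fell, where 7.56% of all genes rose and 5.19% fell. In G2/M, 2 rose and 0 fell, where 9.01% of all genes rose and 7.4% fell. *Stmn1*, a microtubule regulator, rose in S by 0.50 and in G2/M by 0.80 (adjusted p = 0.00441 and 5.98e-06), and *Tubb2b*, a tubulin, fell in S by 0.28 (adjusted p = 0.0960). *Dcx*, *Tubb3*, *Stmn2*, *Dlx5*, *Dlx6*, *Neurog2* and *Neurod1* of this list are not among the 15046 genes counted. The median log2 fold change of the 9 tested genes was 0.10 in S and -0.14 in G2/M, against -0.03 and -0.01 over all genes.

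Of 20 stem cell and astroglial genes, 16 were tested. In S, 4 fell and 1 rose, and in G2/M, 4 fell and 0 rose, with medians of -0.23 and -0.22. Of all genes, 5.19% fell and 7.56% rose in S, and 7.4% fell and 9.01% rose in G2/M. The glutamate transporter *Slc1a3* fell by 0.42 and 0.43 (adjusted p = 0.00137 and 6.53e-04) and the glycolytic enzyme *Aldoc* by 0.37 and 0.54 (adjusted p = 0.0316 and 0.00100). The transporter *Slc1a2* fell by 0.71 and 0.83. Of 14 oligodendrocyte lineage genes, 6 were tested, of which 2 fell in S and 3 in G2/M, beside the same shares of all genes. *Olig1* fell by 0.32 and 0.80 (adjusted p = 0.00307 and 1.65e-09) and *Olig2* by 0.41 and 0.55 (adjusted p = 0.00262 and 5.60e-05). Both encode transcription factors of the oligodendrocyte lineage that are also expressed in dividing progenitors, and a UMI of *Olig1* was found in 100% of cells.

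Over single cells, SoxC and stem cell Sox genes were each found in nearly all cells. At least 1 UMI of SoxC and 1 of the stem cell Sox genes was counted in 172 of 179 cells on plate 1 and in 118 of 125 on plate 2. Cells with SoxC alone numbered 5 and 3, cells with stem cell Sox genes alone 2 and 3. As SoxC was in 177 and 121 cells and the stem cell Sox genes in 174 and 121, joint detection says little about a relation. SoxC made up 65.9% of the joint UMIs on plate 1 and 62.2% on plate 2. In the low category it was 70.2% and 65.2% and in the high category 61.7% and 58.4%, and *Sox4* holds most of the SoxC UMIs. By phase, the share was 66.3% and 62.2% in G1, 62.3% and 63.7% in S, and 68.2% and 60.7% in G2/M, with no order shared by the plates.

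The summed levels of both groups were close to unrelated over cells. Pearson's r of log2(UMIs per 10000 + 1) was 0.0016 over 179 cells of plate 1 and 0.17 over 125 cells of plate 2, and Spearman's rho was 0.0020 and 0.12. The cells of a plate share a library, and both sums are divided by the same total. In thinned cells r was -0.0087 and 0.087. With *Sox8* and *Sox21* added to the stem cell genes, r was 0.13 and 0.28. Among pairs of members, *Sox4* with *Sox8* had an r of 0.40 and 0.23, *Sox4* with *Sox9* 0.18 and 0.25, and *Sox4* with *Sox11* -0.019 and 0.12. In sparse counts such weak relations are no finding.

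**Figure D4:**
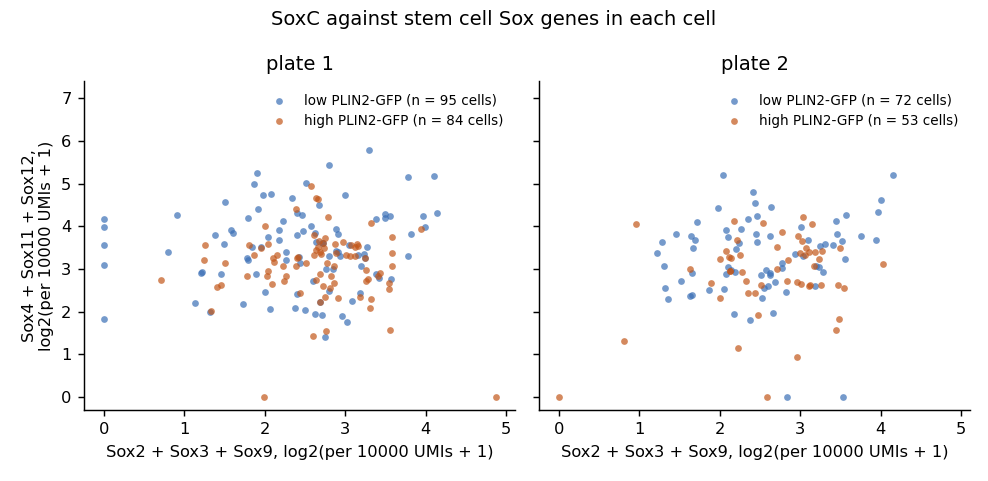
Level of SoxC (*Sox4*, *Sox11* and *Sox12* together) against that of the stem cell Sox genes (*Sox2*, *Sox3* and *Sox9* together) in each cell, both as log2(UMIs per 10000 + 1), for plate 1 (left) and plate 2 (right), with low PLIN2-GFP NSPCs in blue and high in orange. The clouds show no slope on plate 1 (r = 0.0016) and a slight one on plate 2 (r = 0.17).

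The genes most like 4 members over all 304 cells were sought among 2284 genes with a UMI in at least 50% of cells, by Pearson's r after centring on the plate mean. For *Sox4* they were *Marcks* (r = 0.44), *Myo10* (0.38) and *Smoc1* (0.35). For *Sox11* they were *Myo10* (0.32), *Rbbp7* (0.30) and *Ddx3x* (0.29), for *Sox9* *Pigx* (0.26), *Ftl1* (0.24) and *Lrrc58* (0.24), and for *Sox2* *Eef1a1* (0.25), *mt-Cytb* (0.22) and *Gnas* (0.20). Each r had the same sign on both plates, which is no replication, since the genes were picked for the highest r over the cells of both. In thinned cells the r of the 3 genes with *Sox4* was 0.24, 0.23 and 0.23, and that of the genes with *Sox11* was 0.10, 0.092 and 0.040. For *Sox9* it was 0.18, 0.042 and 0.080, and for *Sox2* 0.17, 0.15 and 0.055. *Sox12*, *Sox5*, *Sox6*, *Sox21* and *Sox2* were in too few cells to be among the genes compared. Of the members left, none was among the 3 nearest genes of *Sox4* or *Sox11*, and *Sox8* ranked 5 for *Sox4* (r = 0.33).

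The authors' clustering gave 2 clusters, 0 with 155 cells and 1 with 149, after the cell cycle was removed. As the clusters were made from the genes of these cells, their levels are a description. *Sox4* was at 537 and 457 CPM in cluster 0 and 881 and 729 in cluster 1 of plates 1 and 2. *Sox8* was at 84.9 and 58.4 CPM in cluster 0 and 114 and 159 in cluster 1, and *Sox6* at 30.8 and 39.3 in cluster 0 and 73.8 and 59.6 in cluster 1. *Sox11* (290 and 230 CPM in cluster 0, 287 and 294 in cluster 1) and *Sox3* (173 and 155, 152 and 156) differed less. Cluster 0 held 101 of the 137 high and 54 of the 167 low PLIN2-GFP NSPCs, so the clusters follow the category in part. Within cluster 1, *Sox4* was at 1078 and 760 CPM in the low and 564 and 577 in the high category, and within cluster 0 at 780 and 491 in the low and 465 and 441 in the high category, so that the low category was higher inside each cluster on each plate.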

How the data were processed

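Single cells of 1 PLIN2-GFP line on 2 plates were measured by SORT-seq. Per the paper's methods and the processing notes, the authors assigned reads to GRCm38 with Salmon (alevin) and kept cells on mitochondrial share and doublet detection. They deposited estimated counts (expected counts) of UMIs per gene and cell, without normalization, of which 87.1% of those above 0 were whole within 1e-06. Their per-cell table holds the deposited gene count and mitochondrial percent of each cell, with plate, category, phase and cluster. Of the 304 cells, 11 have 20% or more mitochondrial counts, and they were kept. Versions and the gene annotation used for counting are not given in the sources used here. Columns were joined to cells by equal total and number of genes, with 0 left over.

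Counts were summed per plate and category (4 sums), per plate and phase (6), and per plate, category and phase (12), and rounded. edgeR 4.0.16 in R 4.3.3 gave TMM factors, its filter on low counts and quasi-likelihood tests, blocking on the plate, with Benjamini-Hochberg adjustment, at an adjusted p under 0.1. The SE is the log2 fold change divided by the root of F. The plate pairs the sums, which come from 1 shared plate, and deviations of same-plate sums correlated at 0.300 (categories) and 0.195 to 0.224 (phases). The block leaves 1 and 2 residual degrees of freedom, so tests rest on the common dispersion (0.00327 and 0.00443). On simulated data with 200 genes changed 2-fold among about the same number of genes, 63.5% (categories), 60% (S) and 58.5% (G2/M) were recovered, with 12, 10 and 12 false calls. The simulation gave every gene the common dispersion and had no plate effect, so these figures do not describe the test on the real sums. Thinning to 5000 UMIs left out 45 cells. Intervals are exact binomial at 95%. DESeq2 1.42.0, Python 3.11.15, pandas 2.3.3 and scipy 1.17.1 were also used.

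Members and lists were chosen with earlier results of these data known. The genes named are the 10 members, up to 4 genes with the smallest p per list and contrast, and the 3 genes most like *Sox4*, *Sox11*, *Sox2* and *Sox9* over cells, except for a gene that is not reported here. Alternatives were no block, other scalings and filters, DESeq2, thinned cells, mitochondrial genes left out, other thresholds, parts of the cells, and each sum or plate left out. Restriction to cells under 20% mitochondrial counts was added after the data were seen. Promoters come from RefSeq, where 8 of the 10 members had an entry.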

Additional observations from a re-analysis of the deposited data

How the results depend on the processing

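The limits of these values are the 2 plates of 1 line, the low counts of *Sox2*, *Sox6* and *Sox12*, and the reliance of the test on the plate block. Of the 3, 2 and 4 members past the threshold for category, S and G2/M, the test without the replicate block kept 0, 1 and 0, and DESeq2 1, 1 and 1, all *Sox4*. For the category, DESeq2 gave no adjusted p for 8 of the members, *Sox6* and *Sox8* among them. Thinned cells gave 2 members for the category and 1 each for S and G2/M. Cells in G1 alone gave 1 member for the category. The low category alone gave 1 in S and 1 in G2/M, and so did the high category, with *Sox4* in S for both and, in G2/M, *Sox11* for the low and *Sox4* for the high category. No filter on low counts gave 1 member in S, an adjusted p under 0.05 gave 1 in S and 2 in G2/M, and a mean count of at least 50, which tests 5 of the members, gave 2 in G2/M. With 1 sum left out, the count was 0 to 1 for the category, 1 to 2 in S and 1 to 4 in G2/M. The members also changed: without the G1 or the S sum of plate 1, *Sox4* and *Sox9* passed in S, and without the G2/M sum of plate 2, *Sox2* alone passed in G2/M. The category fits with 1 sum left out also had no plate block, unlike those for the phases. Library size only, and the 12 sums with the category as a term, each gave 5 members in G2/M, with *Sox21* added. Leaving out the 11 cells with 20% or more mitochondrial counts, chosen after seeing the data, left the counts for category and S the same and gave 5 members in G2/M, with *Sox2* added (adjusted p = 0.0731). The interaction gave 0 members under each alternative, of which thinning tested 5 members. The r of SoxC with the stem cell Sox genes on plate 1 was 0.13 with *Sox8* and *Sox21* added. The cause of these changes was not tested.

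Differences that changed sign were all of members that did not pass. Between S and G1, *Sox3* was at 0.060 with library size only, 0.033 with a mean count of at least 50, 0.076 in thinned cells, 0.22 in the high category and 0.0070 in cells under 20% mitochondrial counts. In the low category alone, *Sox12* was at -0.086, *Sox8* at -0.15, *Sox5* at 0.14 and *Sox6* at 0.12, and in high alone *Sox21* at -0.065. *Sox8* was at -0.032 in thinned cells. With 1 sum or plate left out, *Sox12* ranged from -0.079 to 0.45, *Sox3* from -0.11 to 0.055 and *Sox9* from -0.66 to 0.071 in S, and *Sox9* from -0.34 to 0.052 in G2/M.

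Counts over all genes of 179, 975 and 1255 for category, S and G2/M became 1, 444 and 653 without the block, 11, 207 and 317 by DESeq2, and 79, 379 and 546 in thinned cells. They became 476 and 683 for S and G2/M with a mean count of at least 50, 642 and 661 in the low category alone and 363 and 655 in the high one, and 8 for the category in G1 cells. With 1 sum left out they ranged from 6 to 22, 477 to 1048 and 697 to 1283. For the category, the fits with 1 sum left out had no plate block, so the loss of the sum and that of the block cannot be told apart. With library size only, 153 genes were higher and 85 lower in the high category, against 74 and 105, and 682 higher and 242 lower in S, against 578 and 397.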
